A study of Mus musculus with 2 samples.

Results

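Striatal interneurons were followed through 9 marker genes: *Chat*, *Slc5a7* and *Slc18a3* of cholinergic interneurons, *Pvalb* of fast-spiking interneurons, *Sst*, *Npy* and *Nos1* of the interneurons that release somatostatin, neuropeptide Y and nitric oxide, and *Calb2* and *Vip* of smaller populations. Every probe that carried one of these gene names was taken, which gave 18 probes among the 56605 probes of the array, and 9 gene names among 36998. The arrays compared mice lacking the astroglial gap junction protein connexin 30 (Cx30 KO, strain label Cx30-LacZ) with wild-type mice (WT, strain label C57BL/6J; the methods describe the non-mutant offspring of heterozygous parents). All mice were 8-week-old males given 4 injections of 20 mg/kg MPTP, a toxin of dopaminergic neurons, at intervals of 2 h, and the striatum was taken 1 day later. RNA of 2 mice was pooled for each genotype and the pool was run on 1 single-colour Agilent array, so 2 arrays were analysed here, both of MPTP-treated mice, and no array of mice without MPTP was used here. With 1 array per genotype nothing below has a check between animals, and no test was made.

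The striatum holds mostly spiny projection neurons, and its interneurons are a small minority that regulates them. Cholinergic interneurons are large, tonically active cells that supply most striatal acetylcholine, and their tone stands in balance with dopamine. Parvalbumin cells fire at high rates and inhibit spiny neurons at the soma, somatostatin cells inhibit dendrites and release peptides and nitric oxide, and calretinin cells are a further, less studied group. In tissue RNA, fewer cells of a type and less RNA in each cell cannot be told apart. Parvalbumin, somatostatin, neuropeptide Y and VIP also mark interneurons of the cortex.

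A few probe sequences are shown because each result is the hybridisation of a 60-base oligonucleotide. The probes of *Pvalb* and *Vip* carried the 2 largest differences, the *Npy* probe the next, the pair of *Chat* probes gave opposite directions, and the *Calb2* probe stayed near background. Sequences run 5′ to 3′ as the array files give them, and positions are those the files give for mm9. Only the first 30 bases of the *Pvalb* and *Vip* probes and the last 30 of the brighter *Chat* probe are printed. Capitals mark a run of the repeated unit GAAA.
Pvalb, A_55_P2114437, chr15:78021951-78022010, first 30 bases: agtttgtttgtgttattttttactccccca
Vip, A_55_P2751338, chr10:4699681-4701551, first 30 bases: gaattctcgaaggaaaacaaccacgtgatt
Npy, A_51_P454873, chr6:49773743-49777505: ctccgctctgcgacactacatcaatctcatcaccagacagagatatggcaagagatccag
Chat, A_55_P1959430, chr14:33221421-33221480, last 30 bases: gctattcaGAAAGAAAGAAAGAAAGAAAGA
Chat, A_55_P2744601, chr14:33260120-33262143: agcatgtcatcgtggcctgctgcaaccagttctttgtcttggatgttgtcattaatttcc
Calb2, A_51_P311436, chr8:112667073-112669583: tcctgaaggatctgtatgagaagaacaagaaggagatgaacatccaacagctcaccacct
The *Npy*, *Vip* and second *Chat* probes span more of the genome than their own 60 bases (3763, 1871 and 2024 bases), as a probe across a splice junction does. Probe GC content was 35% for *Vip* and the brighter *Chat* probe, 45% for *Pvalb* and 50% for *Npy*.

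Of the 18 probes, 12 probes of 8 genes were well above background, all of them on both arrays, and the 6 others were 3 probes of *Chat* and all 3 of *Calb2*. Signals are the scanner software's processed signal in arbitrary units, given with the software's own error of the spot, which covers neither mice nor arrays. A log2 ratio is Cx30 KO over WT after each array was divided by its 75th percentile (401.2 in WT, 381.8 in Cx30 KO), with the error that the 2 spot errors give. A Z-score states here how many SDs a log2 ratio lay from the mean of the 1000 probes nearest to it in signal, a window that the study's methods do not name. With the study's limits on this Z-score and on the ratio, called the criteria below, a probe counted as higher at a ratio of at least 1.5 with a Z-score of at least 2.0, and as lower at a ratio of at most 0.66 with a Z-score of at most -2.0.

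Among the 12 detected probes, *Pvalb* was the 1 counted lower and *Vip* the 1 counted higher. Among all 33910 probes well above background on at least 1 array, 2.93% were lower and 2.08% higher, and 1 probe in each direction is too few to set against these shares. The median log2 ratio of the 12 probes was -0.08, beside 0.04 for all probes, and 7 lay below 0 and 5 above. At the brightest probe of each gene, the 8 genes had a median of 0.02, beside 0.03 for all genes. An absolute log2 ratio above its software error was seen for 5 of the 12 probes, and above 2 times that error for 3, those of *Pvalb*, *Vip* and *Npy*.

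**Figure D1:**
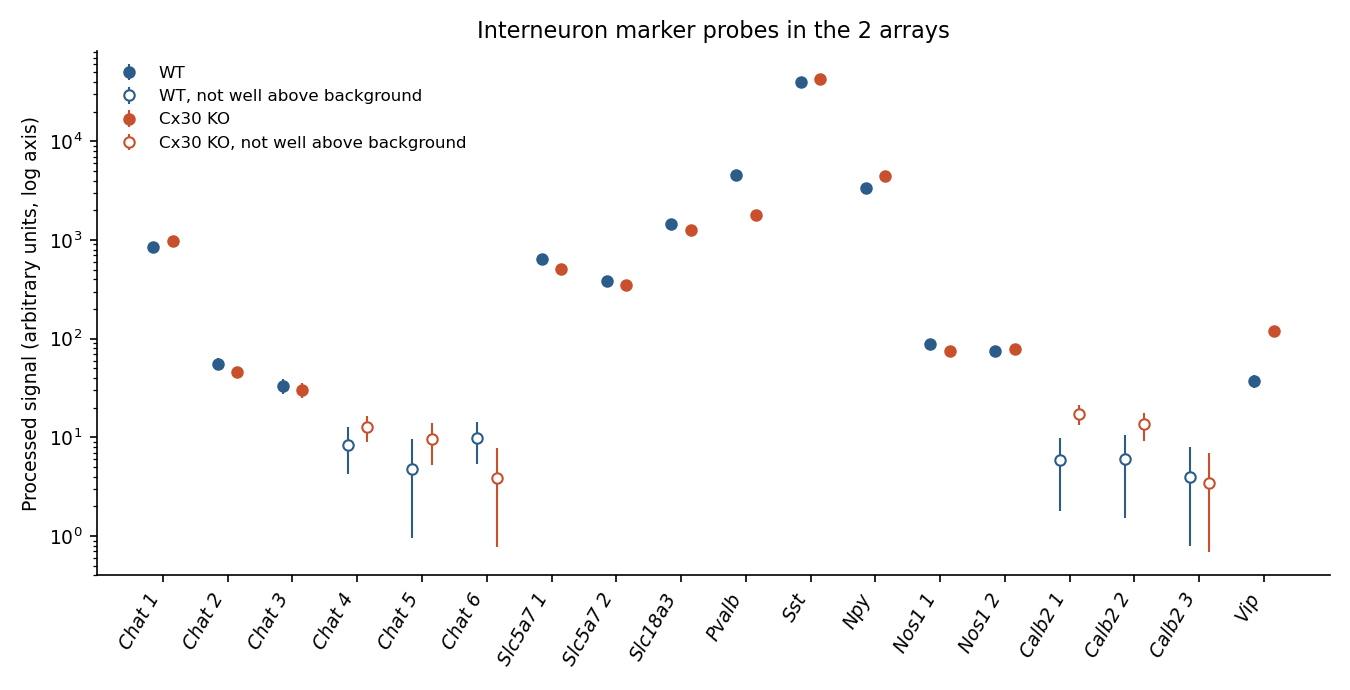
Processed signal (arbitrary units, log axis) of each of the 18 probes on the WT array (blue) and the Cx30 KO array (orange), numbered by brightness within a gene; bars are the software's error of the spot, lower bars that would come near 0 are cut short, and open circles are probes not well above background. *Pvalb* fell from 4533 to 1787 and *Vip* rose from 37.0 to 120, while the points of the other detected probes lie close together.

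Acetylcholine is made by choline acetyltransferase (*Chat*), from choline that the transporter encoded by *Slc5a7* brings back into the terminal, and is loaded into vesicles by the transporter encoded by *Slc18a3*. None of the 6 detected probes of these genes was counted as changed. The *Slc18a3* probe at chr14:33275627-33275686 read 1466 ± 147 for WT against 1265 ± 127 for Cx30 KO (log2 ratio -0.14 ± 0.2). The brighter *Slc5a7* probe at chr17:54413269-54413328 read 645 ± 64.6 and 507 ± 50.8 (-0.27 ± 0.2), and its other probe at chr17:54413771-54413830 read 387 ± 39.0 and 349 ± 35.1 (-0.08 ± 0.21). All 3 transporter probes were lower in Cx30 KO, and only the brighter *Slc5a7* probe by more than its own error.

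*Chat* split by probe. The brightest, A_55_P1959430, read 850 ± 85.1 for WT against 979 ± 97.9 for Cx30 KO (0.28 ± 0.2, Z-score 0.92). A_55_P2744601 read 55.9 ± 7.13 and 45.7 ± 6.02 (-0.22 ± 0.26). A_55_P2744606, at chr14:33267898-33271815, read 33.2 ± 5.69 and 30.1 ± 5.11 (-0.07 ± 0.35). Of these 3 detected probes only the brightest was higher in Cx30 KO, and the gap between highest and lowest log2 ratio was 0.5. The SD between probes of the same gene was 0.25 over 7147 genes. The gap is not a like measure, because a range over 3 probes is always wider than their SD. The 3 remaining *Chat* probes were not well above background on either array, with signals of 3.87 to 12.7.

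The bright *Chat* probe is the one that ends in the repeat printed above, 22 bases with 5 complete GAAA units. On the array, 5 of 56605 probes hold 4 or more GAAA units in a row on the probe strand (0.00883%), and 6 do on either strand (0.0106%). All 5 were well above background, beside 59.9% of all probes. The other 4 had log2 ratios of -0.76 to 0.13. What part of this probe's signal comes from *Chat* was not tested. *Slc18a3* lies inside *Chat* in the RefSeq annotation of GRCm38. Both genes share chromosome 14 with the deleted gene *Gjb6*, whose probe lies 24.5 Mb away.

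Parvalbumin, the calcium-binding protein of fast-spiking cells, had the largest fall among the 8 detected markers. Its only probe read 4533 ± 453 in WT and 1787 ± 179 in Cx30 KO. The signals lay far apart beside their errors, with a log2 ratio of -1.27 ± 0.2, that is 2.41-fold lower, and a Z-score of -4.62. Of all detected probes, 1.74% had a lower log2 ratio. No other probe of *Pvalb* was on the array, so the fall rests on 1 spot per pool.

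Somatostatin, neuropeptide Y and neuronal nitric oxide synthase are carried largely by the same striatal cells. *Sst*, at chr16:23889681-23889740, read 39749 ± 3975 in WT and 43042 ± 4304 in Cx30 KO (0.19 ± 0.2), with no saturated spot. *Npy* read 3326 ± 333 and 4491 ± 449. Its log2 ratio of 0.50 ± 0.2 (ratio 1.42, Z-score 1.84) stayed short of both limits, though the signals lay outside each other's errors. The brighter *Nos1* probe at chr5:118404306-118404365 read 89.1 ± 10.1 and 74.2 ± 8.51 (-0.19 ± 0.23), and the other at chr5:118402831-118402890 read 74.6 ± 8.75 and 77.7 ± 8.78 (0.13 ± 0.24). The 4 probes of these 3 genes thus took both directions, and none met the criteria.

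Calretinin (*Calb2*), a calcium-binding protein, was not measured above background. Its 3 probes on chromosome 8 read 5.88 ± 4.08, 6.09 ± 4.57 and 3.98 ± 3.99 in WT. They read 17.4 ± 3.97, 13.5 ± 4.23 and 3.48 ± 3.49 in Cx30 KO. The lowest signals counted as well above background were 19.8 in WT and 17.4 in Cx30 KO, and none of these probes was flagged so on either array. The 5.88 ± 4.08 and 17.4 ± 3.97 of A_51_P311436 lay outside each other's errors. At signals this dim no fold is given, and no difference is claimed.

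Vasoactive intestinal peptide (*Vip*) marks a class of interneuron best known from cortex. Its only probe read 37.0 ± 5.74 for WT against 120 ± 12.6 for Cx30 KO. The errors did not overlap, and the log2 ratio was 1.77 ± 0.27 (3.42-fold higher, Z-score 3.54). Of all detected probes, 98.7% had a lower log2 ratio. The WT array's lowest signal well above background was 19.8, so *Vip* was a dim probe there. Under normexp correction followed by quantile normalisation *Vip* had a log2 ratio of 0.90 (ratio 1.87) and was still counted as higher.

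**Figure D2:**
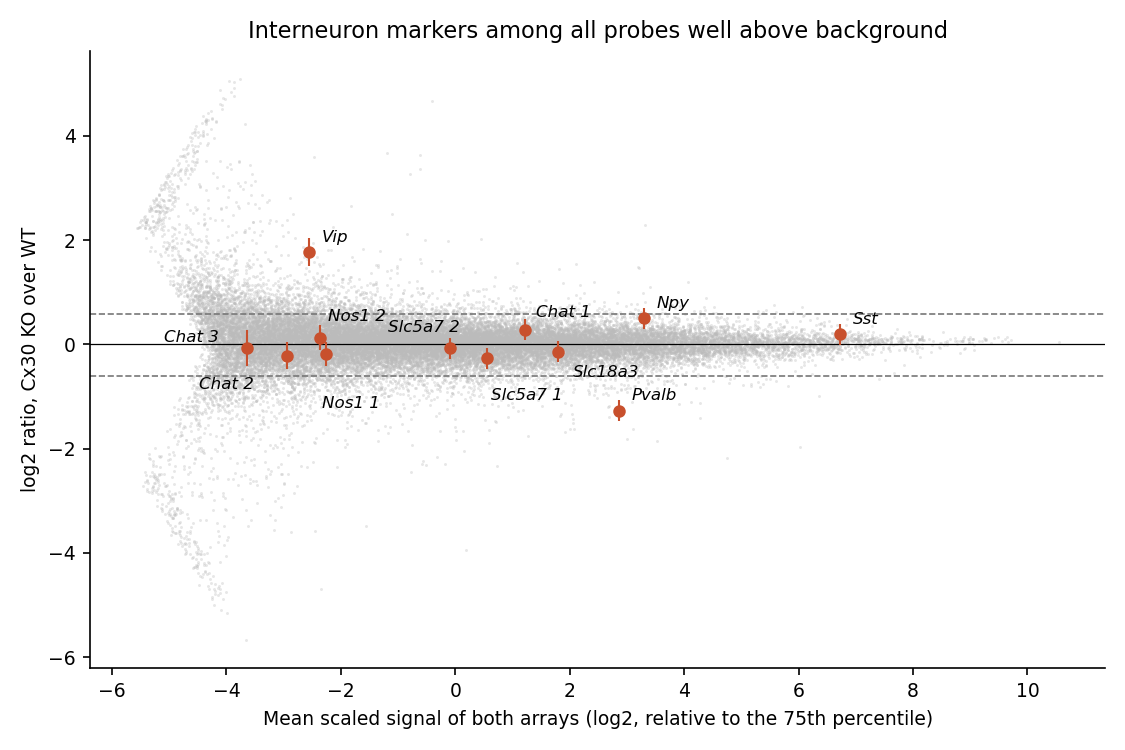
Log2 ratio (Cx30 KO over WT) against the mean scaled signal of both arrays (log2, relative to the 75th percentile) for the 12 detected interneuron probes (orange, bars are the error from both spots) and all detected probes (grey), with dashed lines at ratios of 1.5 and 0.66. *Vip* lies above the cloud at low signal and *Pvalb* below it at high signal, and the other 10 probes lie between the dashed lines.

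**Figure D3:**
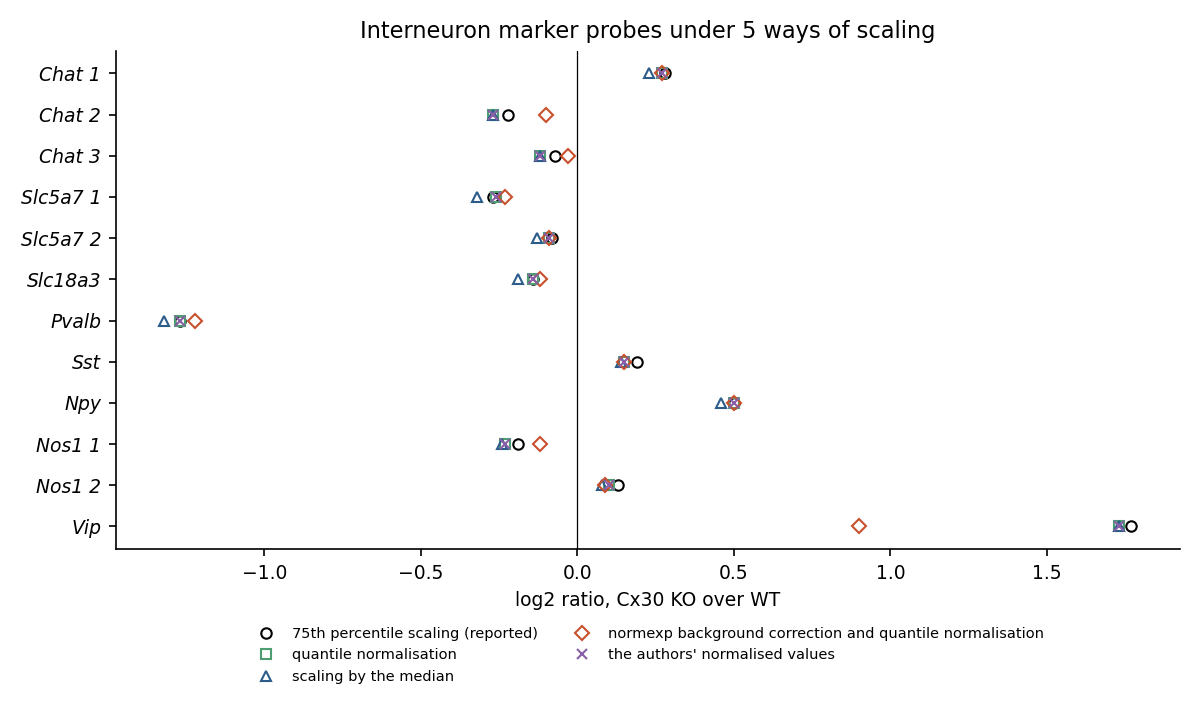
Log2 ratio (Cx30 KO over WT) of the 12 detected interneuron probes under 5 ways of scaling, one symbol for each. *Pvalb* stays between -1.32 and -1.22 and no probe changes sign, while *Vip* moves from 1.77 to 0.90 with normexp background correction.

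Genes around the markers were read in 7 lists, each gene at its brightest probe. Together 78 listed genes were detected, of which 1 was lower and 5 were higher. Over all 22008 detected genes, 3.39% were lower and 2.39% higher. The median log2 ratio of the 78 was 0.00, with 39 below 0 and 39 above. The calls depended on the rule. With the Z-score taken over all probes (2.07% of all genes lower, 2.28% higher), *Pthlh* was the 1 lower gene, *Cort*, *Cck* and *Sstr2* were the 3 higher, and *Chrm1*, *Sstr3* and *Tac2* were not called. *Sstr2*, named after its values were seen, was well above background in Cx30 KO only. With the ratio limits of 1.5 and 0.66 and no Z-score (6.21% of all genes lower, 7.22% higher), 9 genes were lower and 8 higher.

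On the cholinergic side, 10 of 11 genes of acetylcholine breakdown and cholinergic identity were detected and none met the criteria (median 0.17, and 0.05 with the mean of each gene's probes). The largest differences were those of *Slc17a8* and *Lhx8*. *Slc17a8*, the vesicular glutamate transporter that cholinergic cells also use, read 61.2 and 69.1 (0.25). *Lhx8*, a transcription factor of the lineage, read 549 and 440 (-0.25), and its other detected probe gave 0.07. Of the acetylcholine receptors 8 of 13 were detected (median 0.14), and *Chrm1*, the muscarinic M1 receptor, was higher. Its brightest probe rose from 461 ± 46.4 to 732 ± 73.3 (0.74 ± 0.2, Z-score 2.35), and its other detected probes gave 0.14 and 0.60.

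Receptors of somatostatin, neuropeptide Y and VIP were detected for 11 of 12 genes, with a median of 0.01. *Sstr3*, a somatostatin receptor, was the 1 that met the criteria, from 333 ± 33.6 to 573 ± 57.4 (0.86, Z-score 2.59). All 10 nitric oxide receptor and target genes were detected and none met the criteria (median -0.11). Their largest differences, in opposite directions, were those of the cyclic GMP-dependent kinases *Prkg2* (123 to 195, 0.73) and *Prkg1* (41.4 to 23.9, -0.72). All 5 genes of GABA synthesis and transport were detected, again with none called (median -0.06, and 0.05 with the mean of probes). The GABA-synthesising enzyme gene *Gad1* read 6255 and 4611 (-0.37), with both of its other probes in the opposite direction, and the vesicular GABA transporter gene *Slc32a1* read 67139 and 55943 (-0.19).

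Fast-spiking and other GABA interneuron genes held the widest range, with 15 of 15 detected, 1 lower, 3 higher and a median of 0.00. Of the 15, 8 lay below 0 and 7 above. *Pthlh*, a parathyroid hormone-like peptide found in striatal fast-spiking cells, was the 1 lower gene. It read 175 ± 18.2 in WT and 67.6 ± 7.94 in Cx30 KO (-1.30, 2.47-fold lower, Z-score -3.17). Under normexp correction followed by quantile normalisation its log2 ratio was -0.86, and it was still counted as lower. The peptide genes *Cck*, *Cort* and *Tac2* were higher. Cholecystokinin (*Cck*), abundant in cortex, was spotted 10 times on each array, from 1738 to 1892 (median 1798) in WT and from 7919 to 8939 (median 8384) in Cx30 KO. The spot ranges did not overlap, at a 4.91-fold difference, and spots of 1 pool do not measure the spread between mice. *Cort*, encoding the somatostatin relative cortistatin, read 139 ± 14.8 and 525 ± 52.7 (1.99, 3.98-fold higher). *Tac2*, a tachykinin gene, read 315 ± 31.8 and 523 ± 52.4 (0.80).

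None of 3 potassium channel genes listed for fast-spiking cells met the criteria. The potassium channel genes *Kcnc1* and *Kcnc2*, and the channel subunit gene *Kcnab3*, were picked after their values were seen. *Kcnc1* read 1382 and 1535 (0.22) and *Kcnc2* 165 and 95.4 (-0.72, Z-score -1.97). The 2 other *Kcnc1* probes were below 0 and the other *Kcnc2* probe above 0, opposite to the brightest in each case. *Kcnab3*, with no other detected probe, read 266 and 188 (-0.43), in the direction of *Pvalb*. All 19 interneuron transcription factors were detected, with a median of -0.23 (-0.38 with the mean of each gene's probes) and 13 of 19 below 0, beside 45.4% of all genes. None met the criteria. The largest differences were those of *Adarb2*, an RNA-editing family gene of cortical interneurons (136 to 74.6, -0.80), and *Nkx2-1*, which specifies striatal interneurons (95.0 to 56.1, -0.69).

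**Figure D4:**
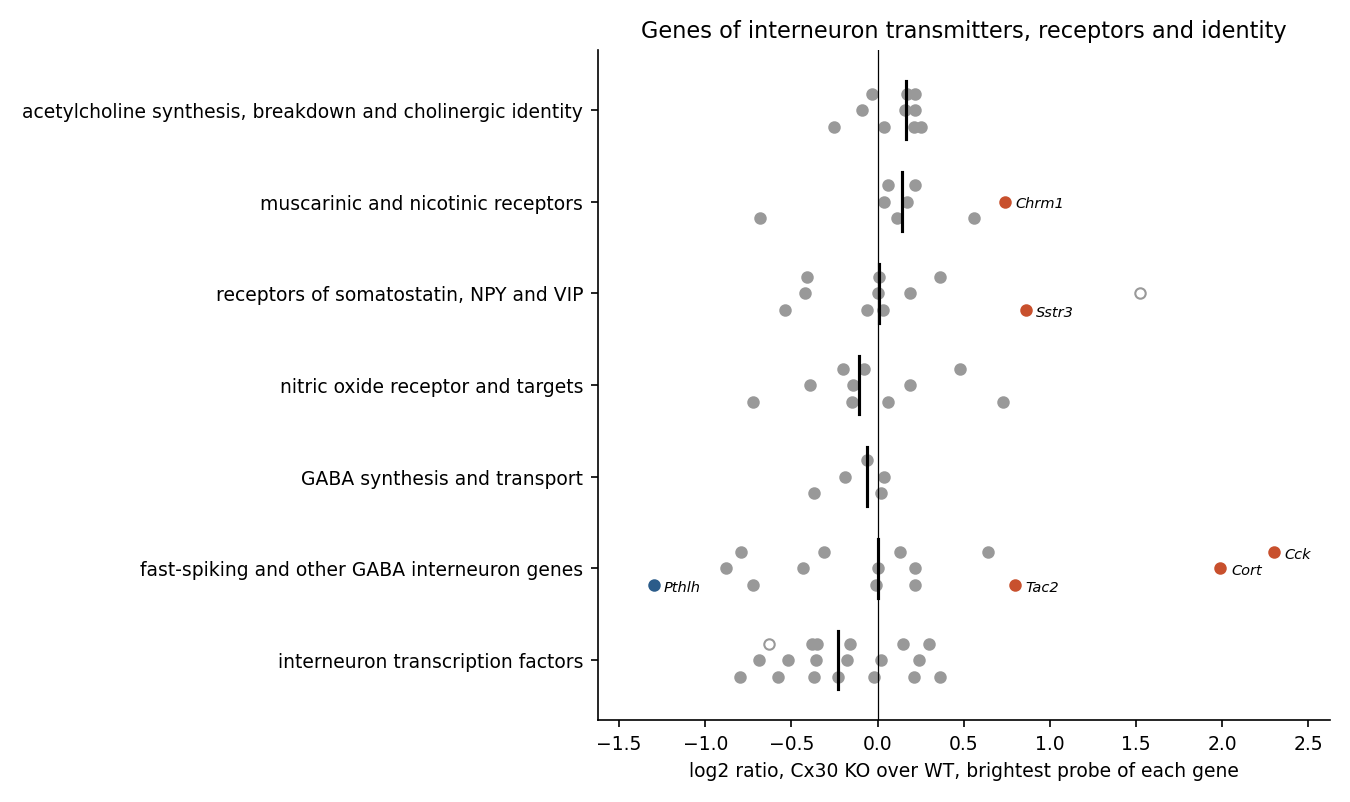
Log2 ratio (Cx30 KO over WT) of each detected gene of the 7 lists at its brightest probe, with a black bar at each list's median; orange is higher, blue lower and grey neither by the criteria, and open circles were well above background on 1 array. *Pthlh* is the blue point, and *Chrm1*, *Sstr3*, *Tac2*, *Cort* and *Cck* are the orange ones.

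The targeted gene, *Gjb6* (Cx30), was low in the pool labelled Cx30 KO. It read 1788 ± 179 in WT and 111 ± 11.6 in Cx30 KO, 15.4-fold lower. Both pools carried striatal markers, with 9 of 9 spiny neuron genes detected on both arrays, none called and a median log2 ratio of -0.16. Markers of cortical excitatory neurons moved in the direction of *Vip*, *Cck* and *Cort*. *Pvalb* (-1.27) and *Adarb2* (-0.80), also named above for interneurons of the cortex, were below 0. Of 9 cortical excitatory genes 6 were higher and none lower in Cx30 KO. Their scaled signals summed to 1.05 for WT against 4.63 for Cx30 KO, in multiples of the 75th percentile. The median log2 ratio was 2.50, or 1.75 with genes measured on 1 array at their bound, and 0.78 with normexp correction. *Neurod2* read 49.0 and 594, and *Tbr1* 78.6 and 423. *Slc17a7* and *Neurod6* were not well above background in WT. *Neurod6* was at least 3.44-fold higher, and the difference of *Slc17a7* was 12.1-fold as measured. Their part in the *Vip* result was not tested.

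Oligodendrocyte and microglia markers moved in the direction of *Pvalb*. Of 7 oligodendrocyte genes 5 were lower and none higher (median -0.73), and their scaled signals summed to 392 for WT against 244 for Cx30 KO. Of 8 microglia genes 4 were lower (median -0.52), with sums of 221 and 215. *Itgam*, the brightest of them, made up 150 and 164 of those sums, and the 7 others summed to 71.0 and 51.5. With the Z-score over all probes none of the 7 oligodendrocyte genes and 1 of the 8 microglia genes was lower, while 6 of the 9 cortical genes were higher. That setting uses the same SD for bright and dim probes. Under it the -1.27 of *Pvalb* gave a Z-score of -2.16, and the oligodendrocyte log2 ratios ran only from -1.12 to -0.44. These counts therefore do not show which shift is firmer. The part of oligodendrocytes and microglia in the *Pvalb* result was not tested. Septal and pallidal genes had 1 of 7 higher, *Prlr*, 7.03-fold as measured and not well above background in WT. Their median of 0.07 turned to -0.04 under quantile normalisation. Astrocyte, endothelial and choroid plexus lists had 2 of 7, 1 of 5 and 1 of 5 genes lower, and the olfactory tubercle and general neuron lists had none called.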

How the data were processed

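RNA from 1 pool of 2 mice per genotype had been labelled and hybridised to 1 single-colour Agilent array each, on 1 slide. The deposited files hold scanner intensities: the authors' processed signal per spot, background-subtracted by Agilent Feature Extraction (version 10.7.1.1 in the file header, 9.5.1.1 in the labels). The deposited value table was used only as an alternative and lay within 1% of quantile-normalised processed signals for 99.991% of values. Of 62976 spots per array, control spots and outlier spots (48 in WT and 52 in Cx30 KO, controls not counted) were left out. Spots of a probe were averaged. Log2 values were taken relative to each array's 75th percentile, which shifted all log2 ratios by 0.07. Probes were taken as well above background where the software flagged 50% or more of their spots. No spot was saturated. With 2 arrays no test was possible. The study's limits on Z-score and ratio were applied, with the Z-score taken from the 1000 probes nearest in signal, a window chosen here. Genes were named from the files, with older symbols updated through RefSeq (1897 probes). Named were all marker probes, called genes of each surrounding list or, where none, the 2 with the largest difference, up to 4 genes per marker list, and *Gjb6*. The markers and lists were chosen with earlier results of these data known. The number of arrays limits precision. Python 3.11.15, numpy 2.4.6, pandas 2.3.3, and R 4.3.3 with limma 3.58.1 (normexp, offset 50) were used.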

Additional observations from a re-analysis of the deposited data

How the results depend on the processing

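The counts of 1 lower and 1 higher marker probe were 1 under each of 10 alternatives: other scalings, background corrections, background filters, Z-score references and ratio limits. *Pvalb* was the lower and *Vip* the higher probe in each, *Pvalb* with a Z-score of -2.16 when taken over all probes. Several of these settings had little or no room to change either call. The background filters kept both probes with the same Z-scores, and scaling by the median also left the Z-scores as they were. The authors' values nearly repeated quantile normalisation, and ratio limits of 1.5 and 0.66 without a Z-score could only add calls. The median log2 ratio of the marker probes, -0.08, was 0.03 with no filter on dim probes and 0.02 with the brightest probe of each gene, so it has no stable sign. Genes around the markers gave 1 lower and 5 higher. Scaling by the median gave 2 lower, adding *Etv1*, picked after its value was seen. Of the settings chosen after seeing the data, a Z-score over the 200 nearest probes also gave 2 lower, adding *Adarb2*. A Z-score over all probes, and ratio limits of 2 and 0.5 without a Z-score, each gave 3 higher (*Sstr2*, *Cort* and *Cck*), so that *Chrm1*, *Sstr3* and *Tac2* lost their calls. Ratio limits of 1.5 and 0.66 without a Z-score gave 9 lower and 8 higher. No paired analysis was possible because each genotype had 1 array, and for the same reason no replicate could be left out. Dim signal limits *Vip*, *Nos1*, the weaker *Chat* probes and *Calb2* most.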
